A study of Caenorhabditis elegans with 20 samples.

Results

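The *clec* genes of *Caenorhabditis elegans* encode proteins with a C-type lectin domain. The members described here are the probesets that the annotation of the array platform assigns to 1 gene alone, where the symbol of that gene is clec- plus a number. There were 232 such probesets of 216 genes, out of 20563 probesets tested and 16649 genes with a probeset of their own. Of the 216 genes, 201 had 1 probeset, 14 had 2 and *clec-78* had 3. A further 18 probesets name a *clec* gene together with another gene and were not counted as members. All member symbols were found in RefSeq (assembly WBcel235), which lists 264 *clec* genes and places those measured here on chromosomes V (75 genes), II (46), IV (44), I (31), III (17) and X (3). RefSeq gives 201 of the 216 as protein coding and 15 as pseudogenes.

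C-type lectin domains bind carbohydrates in many animal proteins, often with calcium, but for most members of the worm family no ligand is known. Many of the worm proteins carry a signal for secretion, and many of the genes are expressed in the intestine. Feeding on pathogenic bacteria raises the transcripts of a number of them, and some serve as readouts of the innate immune pathways of the worm, among them the pathway of the p38 kinase PMK-1.

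RNA of whole nematodes of strain DA1316 was hybridised to Affymetrix *C. elegans* GeneChips, to ask which transcripts change after a short exposure to ivermectin (IVM), a drug against parasitic nematodes that acts on glutamate-gated chloride channels. The 4 groups, of 5 arrays each, were 100 ng/ml IVM with 0.001% v/v DMSO, its control with 0.001% DMSO alone, 1 µg/ml IVM with 0.01% DMSO, and its control with 0.01% DMSO alone. Every group carried the mutations *avr-14(ad1302)*, *avr-15(ad1250)* and *glc-1(pk54)* in channel subunit genes, as the labels give them, whereas the methods of the study name the *avr-15* allele as *vu227*. Worms grew for 53 hr from L1 on OP50 bacteria and were exposed for 4 hr. As the worm suspension was split between drug and control plates, arrays with the same replicate number were taken as a pair. The titles do not state this match. The labels name no pathogen and no wild-type strain. The DMSO shares are those of the methods, whereas the sample descriptions name another share. Dose, DMSO share and experiment changed together, and their parts in a difference between the doses cannot be told apart. As bulk RNA was measured, fewer cells of a type and less RNA per cell cannot be told apart either.

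The deposited values are log2 intensities from 2.74 to 14.2, with array medians of 5.58 to 5.71. Both arrays of replicate 2 at 1 µg/ml stood apart from the other 18, with a mean of 8 oocyte markers of 7.50 in the IVM array and 8.18 in the control array, against 9.96 to 11.1 in the others. In replicate 4 at 100 ng/ml, differences ran against those of the other pairs. Whether the labels of its 2 arrays are exchanged was not tested, and the arrays were kept as labelled, so that values over 5 pairs at 100 ng/ml depend on these labels. Calls of *clec* members at 1 µg/ml are given with and without replicate 2. Those at 100 ng/ml and for the difference between doses are given with and without replicate 4. Calls of other named genes and probesets are over all 5 pairs only. Other values are over all arrays unless stated. Of the cell type markers, all 10 measured for intestine and all 8 each for germline, oocyte and hypodermis had a mean above the median of all probesets, as did 8 of 9 for pharynx, 7 of 8 for neurons, 6 of 7 for body wall muscle and 8 of 10 for sperm. The lists of the tissues thus all had signal in RNA labelled as whole nematode.

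Most *clec* probesets gave a low signal. The median over members of the mean log2 intensity was 4.75, against 5.70 over all probesets. Only 61 of the 232 (26.3%) were above the median of all probesets, where 50% of all probesets are, and 80 (34.5%) were among the lowest 25%. Among the highest 10% were 13 members (5.6%). Probesets differ in how strongly their probes bind, so these ranks order signals and not RNA amounts. The 15 pseudogenes had means of 3.51 to 5.31.

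The highest signal was that of a probeset of *clec-87*, with a mean over the 20 arrays of 12.03, followed by *clec-63* (11.69), the other probeset of *clec-87* (11.57), the brighter probeset of *clec-88* (10.96), *clec-47* (10.58), *clec-50* (10.48), *clec-1* (10.38) and *clec-83* (10.01). At the other end, probesets of *clec-254*, *clec-213*, *clec-251*, *clec-136*, *clec-161*, *clec-195*, *clec-198* and *clec-242* had means of 3.15 to 3.39. The table holds no detection calls, and so it is not known whether these genes were above background.

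With 1 µg/ml IVM, 9 of the 232 probesets (3.88%), which stand for 8 genes, were called in limma at an adjusted p under 0.05, where the share of all 20563 probesets called was 3.48%. The share of *clec* probesets called, over all signal levels, was thus close to that of the whole array. Higher with IVM were 6 of them (2.59%, against 2.11% of all probesets), namely *clec-7*, *clec-264*, *clec-83*, *clec-62* and both probesets of *clec-65*, and lower were 3 (1.29%, against 1.37%), namely *clec-70*, *clec-1* and *clec-53*. Unadjusted p values under 0.05 were found for 38 (16.4%, against 15.6%), and for 41 without replicate 2 (17.7%, against 13.8%). The median log2 fold change was -0.02 over the members and -0.01 over all probesets, and 42.7% of members were above 0, against 45.6% of all. All 5 pairs were higher in 16 members (6.90%, against 7.29% of all) and lower in 18 (7.76%, against 7.91%). A mean difference over 0.5 in size was seen in 13 members (5.6%, against 4.51% of all probesets) and over 1 in 3, *clec-7*, *clec-76* and *clec-70* (1.29%, against 0.89%). The count of 9 depended on single pairs, as did that of all probesets. Without replicate 1 or without replicate 4 only *clec-7* was called (0.431% of members, against 0.997% and 1.06% of all probesets). Without replicate 5 there were 5 calls (2.16%, against 3.04%), of which 3 were among the 9. Without replicate 2, which stood apart, 8 passed (2.85% of all probesets), of which 4 were among the 9. Of the 8, 4 were higher (1.72%, against 1.71% of all) and 4 lower (1.72%, against 1.14%). A further fit took only the probesets with a mean above the median of all. It called 8 of 61 members and 739 of all 10281 probesets, so that the share was higher among the members. This difference in shares was not tested. The share of 3.88% is over all 232 members, most of which lay below the median signal of all probesets.

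**Figure D1:**
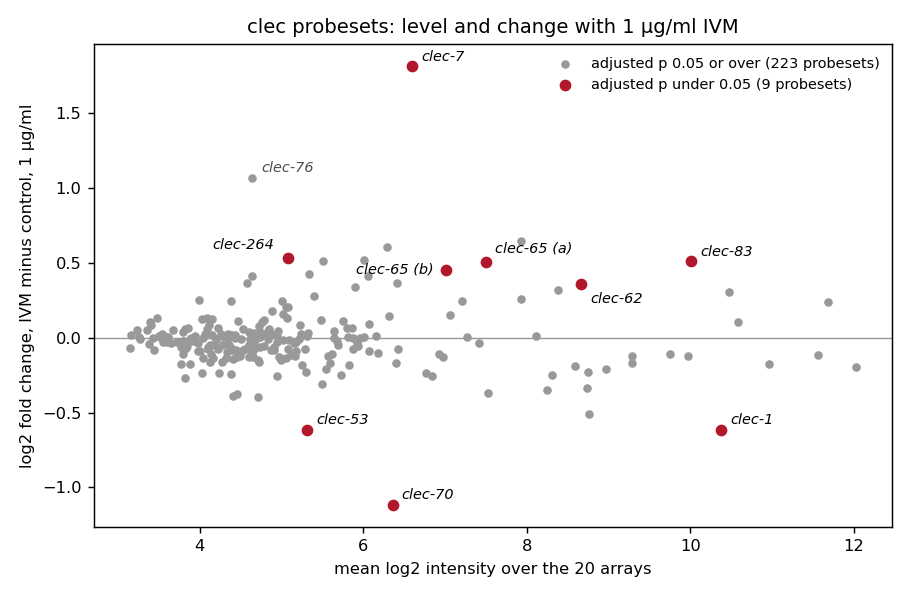
Each point is 1 of the 232 *clec* probesets, with its mean log2 intensity over the 20 arrays on the x axis and its log2 fold change with 1 µg/ml IVM (IVM minus control, 5 pairs) on the y axis. Red points are the 9 with an adjusted p under 0.05 from limma, the letters a and b mark the 2 probesets of *clec-65*, and most members lie at low signal and near 0.

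*clec-7* rose most. Its log2 intensities were 7.86, 8.13, 7.79, 7.55 and 7.09 in the IVM arrays of replicates 1 to 5, and 6.12, 6.13, 5.89, 5.49 and 5.70 in their controls. All 5 IVM arrays lay above all 5 controls, which held for no other *clec* probeset (0.431% of members, against 0.987% of all probesets). The mean log2 difference between IVM and control was 1.82 (SE 0.11, 95% confidence interval 1.57 to 2.06, adjusted p = 0.000291 from limma), which is 3.52-fold. Of the members it alone was called in every alternative fit tried at this dose.

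The other rises were smaller, at 1.28- to 1.45-fold. *clec-65*, a gene that rises when worms feed on *Serratia marcescens*, was measured by 2 probesets that moved alike. The probeset with the higher signal had 7.77, 8.32, 7.90, 7.87 and 7.80 in the IVM arrays and 7.27, 7.79, 7.58, 7.40 and 7.07 in the controls. The mean log2 difference between IVM and control was 0.51 (SE 0.08, adjusted p = 0.0147), and that of the other probeset was 0.46 (SE 0.09, adjusted p = 0.0327). Each IVM array was above its own control, although the ranges of the groups overlapped.

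*clec-83* had 10.40, 10.29, 9.90, 10.02 and 10.00 in the IVM arrays and 9.91, 9.77, 9.74, 9.28 and 9.35 in the controls, with a mean log2 difference of 0.51 (SE 0.10, adjusted p = 0.0275). The ranges touched only where the lowest IVM array (replicate 3, at 9.90) fell just short of the highest control (replicate 1, at 9.91). *clec-264* had 5.62, 5.97, 5.21, 5.64 and 5.06 with IVM and 4.80, 5.41, 5.04, 4.88 and 4.69 in the controls, with a mean log2 difference of 0.54 (SE 0.11, adjusted p = 0.0349). Its groups overlapped, and the IVM array was the higher one in each pair. *clec-62* had 9.37, 9.81, 8.38, 8.40 and 8.24 with IVM and 8.95, 9.38, 8.14, 8.01 and 7.94 in the controls, with a mean log2 difference of 0.36 (SE 0.07, adjusted p = 0.0396). For *clec-62* the pairs differed from each other far more than the IVM array differed from the control within a pair, and its call rests on 5 small differences of the same sign (0.24 to 0.43).

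*clec-70*, a gene known to rise with infection by *Staphylococcus aureus*, fell most. Its values were 5.37, 6.19, 5.64, 5.47 and 5.65 in the IVM arrays and 6.99, 7.55, 5.73, 6.62 and 7.0 in the controls. The control of replicate 3 was low and lay within the range of the IVM arrays, so that the difference was -0.09 in that pair and -1.16 to -1.62 in the other 4. The mean log2 difference between IVM and control was -1.12 (SE 0.20, adjusted p = 0.0203), so that the signal was 2.17-fold higher in the controls.

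*clec-53* had 4.98, 5.22, 4.71, 4.98 and 5.20 with IVM and 5.38, 5.51, 5.59, 5.66 and 6.01 in the controls, with a mean log2 difference of -0.61 (SE 0.11, adjusted p = 0.0194). Here all IVM arrays lay below all controls, which was so for 4 *clec* probesets (1.72%, against 0.608% of all probesets), the others being *clec-132*, *clec-210* and *clec-247*, at adjusted p of 0.307, 0.0661 and 0.310. *clec-1*, one of the probesets with the highest signal, had 9.94, 9.58, 9.93, 10.26 and 10.65 with IVM and 10.52, 10.15, 11.02, 10.88 and 10.85 in the controls, with a mean log2 difference of -0.61 (SE 0.12, adjusted p = 0.0310). Its groups overlapped, while the IVM array was the lower one in each pair.

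**Figure D2:**
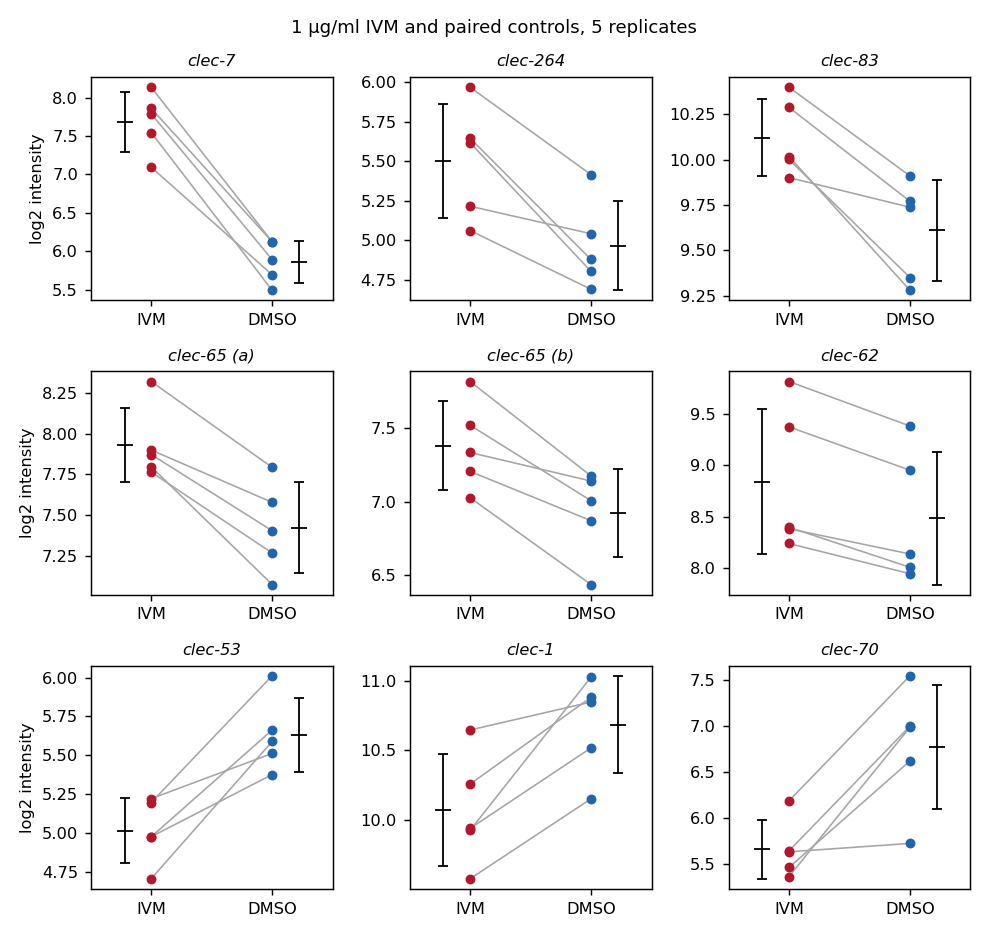
Each panel shows 1 of the 9 called probesets, with the log2 intensity on the y axis, the 5 IVM arrays at 1 µg/ml (red) on the left, their 5 DMSO controls (blue) on the right and a line for each pair. Bars beside the points give the mean and SD of each group (n = 5), and the lines slope the same way in all 5 pairs of every panel, with groups that do not overlap for *clec-7* and *clec-53*.

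Several further probesets came near the threshold at 1 µg/ml. *clec-76* had the largest upward difference after that of *clec-7*, with 5.63, 7.09, 4.90, 4.82 and 4.32 with IVM and 4.32, 4.83, 4.07, 3.90 and 4.29 in the controls. The differences within pairs ranged from 0.03 in replicate 5 to 2.26 in replicate 2, and its mean of 1.07 (SE 0.26) did not pass (adjusted p = 0.0671). *clec-54* was at 0.41 (SE 0.09, adjusted p = 0.0511), *clec-66* at 0.64 (SE 0.16, adjusted p = 0.0786), *clec-52* at -0.35 (SE 0.09, adjusted p = 0.0862) and *clec-86* at -0.39 (SE 0.10, adjusted p = 0.0862). When replicate 2 was left out, *clec-54*, *clec-52*, *clec-86* and *clec-151* passed, with adjusted p of 0.0404, 0.0456, 0.0453 and 0.0453, and *clec-264*, *clec-83*, *clec-62*, *clec-1* and one probeset of *clec-65* did not (0.0548 to 0.105).

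The *clec* genes lie in part side by side in the genome. In the gene order of RefSeq, 24 runs of at least 3 *clec* genes, with at most 2 other protein-coding genes between neighbours, held 122 of the 264, and the largest held 15. Of these runs, 16 had 3 or more member probesets. The run of *clec-62*, *clec-63*, *clec-64*, *clec-65* and *clec-66* on chromosome II had the highest median log2 fold change at 1 µg/ml (0.41). All 6 of its probesets were above 0, with 3 called, while *clec-63* (0.24, adjusted p = 0.420), *clec-64* (0.05, adjusted p = 0.90) and *clec-66* did not pass. Next came the run of *clec-82* to *clec-85* on chromosome IV, with a median of 0.24 over 3 probesets and *clec-83* called. In the run of *clec-67* to *clec-79* on chromosome IV, *clec-70* and *clec-76* stood far apart in opposite directions, at -1.12 and 1.07, while the median over its 12 probesets was -0.04. These runs were singled out after their values were seen. Of the 9 called probesets, 4 carry the suffix _s_at (*clec-83*, *clec-62* and both of *clec-65*), which the array maker gives to probesets whose probes can match more than 1 related transcript. The part of related transcripts in these values was not tested.

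**Figure D3:**
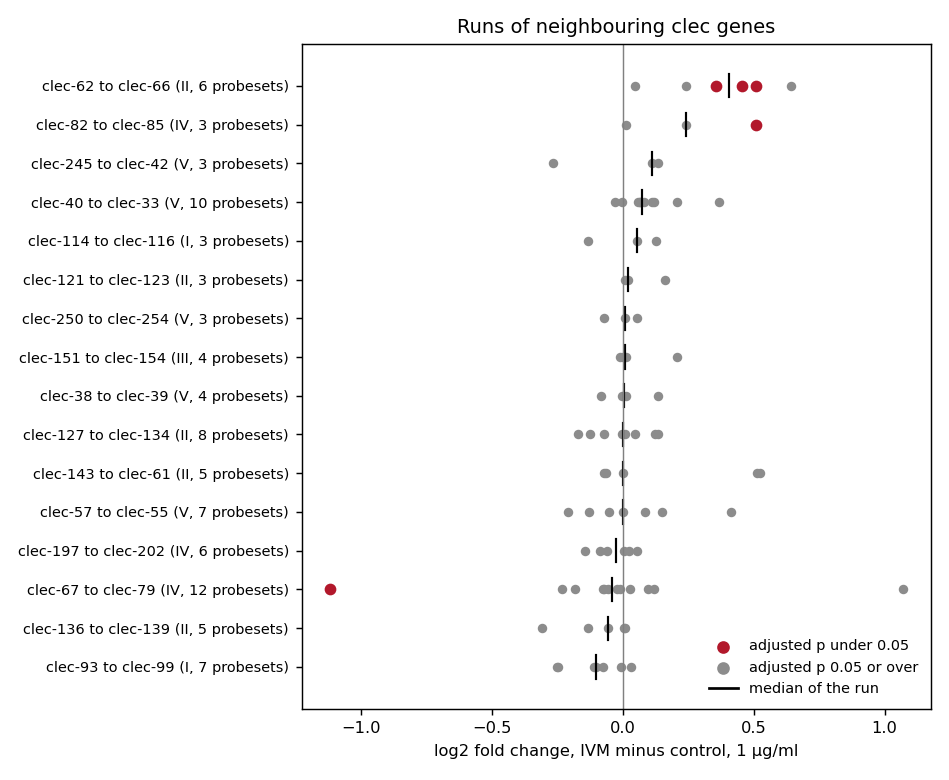
Each line is 1 of the 16 runs of neighbouring *clec* genes with 3 or more probesets, named by its first and last gene in RefSeq order with its chromosome, and each point is the log2 fold change of 1 probeset with 1 µg/ml IVM (IVM minus control). Red points passed an adjusted p under 0.05, black bars are medians, and the run of *clec-62* to *clec-66* at the top lies wholly above 0.

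Among the 13 *clec* genes named in work on infection, all of which had a probeset, 1 rose with 1 µg/ml IVM (*clec-65*) and 1 fell (*clec-70*), where 2.11% of all probesets were called higher and 1.37% lower, and the median log2 fold change was 0.10, against -0.01 over all probesets. *clec-60*, a gene that *S. aureus* induces, had 5.85, 7.10, 6.94, 6.35 and 6.30 with IVM and 5.80, 6.63, 5.82, 5.53 and 6.15 in the controls. Its log2 fold change of 0.52 (SE 0.15) was above 0 in all 5 pairs and did not pass (adjusted p = 0.123). *clec-49* was at 0.26, *clec-4* at 0.25 and *clec-63* at 0.24, and *clec-71*, next to *clec-70* on chromosome IV, was at -0.23 (adjusted p = 0.334 to 0.447). *clec-85* and *clec-67*, which are targets of PMK-1, were at 0.01 (95% confidence interval -0.21 to 0.24) and 0.10 (-0.22 to 0.41). *clec-39*, which worms need for defence against *S. marcescens*, gave a signal of 3.39 with IVM and 3.48 in the controls, near the bottom of the array, and *clec-41*, *clec-42* and *clec-52* had adjusted p of 0.0862 to 0.604.

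The 12 genes of galectins (*lec-1* to *lec-12*), which are lectins of another fold, had a median log2 fold change of 0.06 at 1 µg/ml, and *lec-9* fell, with 10.41 ± 0.43 with IVM and 10.99 ± 0.22 in the controls (SD, n = 5), with a mean log2 difference of -0.58 (SE 0.12, adjusted p = 0.0361). Of 12 measured regulators of immune genes, *zip-2*, which encodes a bZIP transcription factor of the response to *Pseudomonas aeruginosa*, rose by 0.88 on the log2 scale (SE 0.13, adjusted p = 0.0100), in 5 of 5 pairs, and 11 did not pass, with *pmk-1*, *atf-7*, *elt-2* and *hlh-30* among them. Of 6 genes other than lectins that depend on PMK-1, 0 passed, with a median of -0.01. Beside these values stands the intestine list, where 1 of 10 markers was higher with IVM (*ges-1*, 0.91) and 2 were lower (*act-5*, -1.11, and *pept-1*, -0.71). Of the lists for the other tissues, 0 markers passed, with median log2 fold changes from -0.11 for oocytes to 0.21 for pharynx. Beside each count in these lists, 2.11% of all probesets were called higher and 1.37% lower. The mean of the intestine markers was 8.70 to 10.0 with IVM and 8.69 to 10.1 in the controls, and the part of cell composition in the changes of *clec* genes was not tested.

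With 100 ng/ml IVM, limma over all 5 pairs called 0 *clec* probesets at an adjusted p under 0.05, and 0% of all probesets. At an unadjusted p under 0.05 there were 11 members (4.74%, against 4.35% of all), and 29 without replicate 4 (12.5%, against 12.3%). Unpaired Rank Products called 1, *clec-7* (0.431%, against 0.214% of all). The median log2 fold change was 0.02 over the members and 0.01 over all probesets. Replicate 4 ran against the other pairs also in these genes. Of the 9 probesets called at 1 µg/ml, 8, 8, 7 and 7 had the same sign in replicates 1, 2, 3 and 5 at 100 ng/ml, and 0 had it in replicate 4. Without replicate 4, 3 members passed (1.29%, against 1.52% of all probesets), all of them higher (0.977% of all), and 0 were lower (0.545% of all). These were *clec-7*, *clec-54* and *clec-76*. Over all 5 pairs, the IVM arrays lay above the controls without overlap in 0 members (0.0729% of all probesets) and below them in 1 (0.431%, against 0.0827%), the dim probeset of *clec-219*, with 3.59 to 3.74 with IVM and 3.77 to 4.32 in the controls (adjusted p = 0.936).

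*clec-7* had 7.22, 7.48, 6.59, 5.66 and 7.32 in the arrays with 100 ng/ml IVM and 5.83, 5.62, 5.50, 6.92 and 6.13 in the controls of replicates 1 to 5. In replicate 4 the array labelled IVM was the lowest of its group and the control the highest, and that pair differed by -1.26, against 1.10 to 1.86 in the other 4. The mean log2 difference between IVM and control was 0.85 (SE 0.37, adjusted p = 0.936) over 5 pairs and 1.38 (SE 0.13, adjusted p = 0.00105) without replicate 4, which is 2.61-fold. *clec-54* had 6.85, 6.16, 5.67, 5.6 and 6.29 with IVM and 6.01, 5.41, 5.26, 5.83 and 5.73 in the controls. Its mean log2 difference was 0.47 (SE 0.14, adjusted p = 0.936) over 5 pairs and 0.64 (SE 0.10, adjusted p = 0.0152) without replicate 4. *clec-76* had 4.57, 4.94, 5.06, 4.07 and 4.65 with IVM and 3.90, 4.14, 4.13, 4.77 and 4.47 in the controls, with 0.38 (SE 0.21) over 5 pairs and 0.64 (SE 0.13, adjusted p = 0.0411) without replicate 4. In all 3 genes replicate 4 was the only pair with the IVM array below its control.

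The next largest mean differences upwards at 100 ng/ml were those of *clec-85* (0.36, SE 0.19) and *clec-223* (0.35, SE 0.15), and downwards those of both probesets of *clec-72* (-0.40, SE 0.12, and -0.34, SE 0.15), *clec-52* (-0.39, SE 0.14), *clec-47* (-0.34, SE 0.14) and *clec-70* (-0.31, SE 0.19). None passed, with an adjusted p of 0.936 for each over 5 pairs and of 0.130 to 0.405 without replicate 4. *clec-85* had 8.31, 8.17, 8.08, 7.53 and 8.76 with IVM and 8.37, 7.53, 7.15, 7.97 and 8.03 in the controls. *clec-52* had 8.11, 7.83, 7.85, 8.06 and 7.91 with IVM and 8.40, 8.41, 7.94, 8.05 and 8.93 in the controls, where replicate 5 differed most, by -1.02. Replicate 5 also gave the lowest difference in *clec-47*, at -0.97, and in the probesets of *clec-72*, at -0.88 and -1.03. The groups overlapped in each of these 7 probesets.

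**Figure D4:**
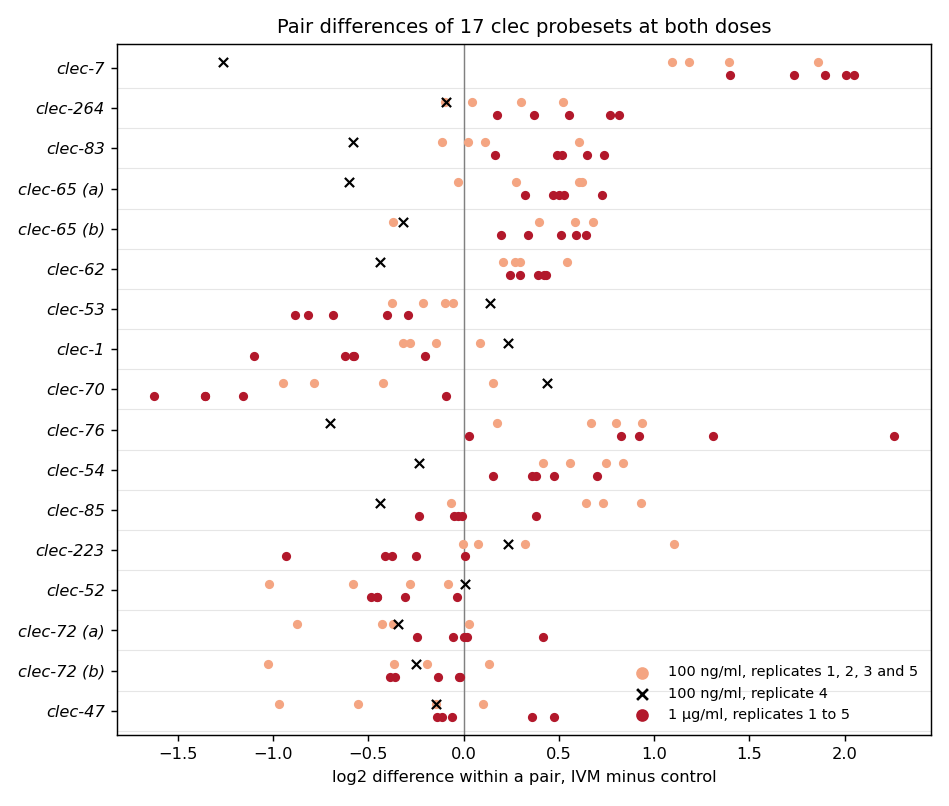
Points are log2 differences between the IVM array and the control of a pair (x axis) for the 17 *clec* probesets called at 1 µg/ml or with the largest mean differences at 100 ng/ml, with 100 ng/ml in orange, its replicate 4 as black crosses and 1 µg/ml in red (n = 5 pairs a dose). The letters a and b mark 2 probesets of a gene, and for the 9 probesets in the upper rows every black cross lies on the other side of 0 from the red points.

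No *clec* probeset passed the test of a difference between the doses. For the change at 1 µg/ml minus that at 100 ng/ml, 0 members passed an adjusted p under 0.05 in limma (0.00486% of all probesets, which is 1) and 13 had an unadjusted p under 0.05 (5.6%, against 6.79%). Without replicate 4 at 100 ng/ml it was again 0, with 12 at an unadjusted p under 0.05 (5.17%, against 6.26%). *clec-7* was at 0.96 (95% confidence interval 0.00 to 1.92, adjusted p = 0.734), and at 0.43 (0.05 to 0.82, adjusted p = 0.772) without replicate 4. For *clec-70* the difference was -0.80 (-1.47 to -0.14, adjusted p = 0.722) and for *clec-54* it was -0.05 (-0.45 to 0.35, adjusted p = 0.97). *clec-223* had opposite mean signs, -0.39 at 1 µg/ml and 0.35 at 100 ng/ml, with a difference of -0.74 (-1.20 to -0.28, adjusted p = 0.645). The width of these intervals means that equal changes at the doses are not shown.

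The levels of some *clec* genes varied far more from pair to pair than with IVM. Both arrays of replicate 2 at 1 µg/ml lay above the other 18 in 15 members (6.47%, against 7.48% of all probesets) and below them in 15 (6.47%, against 6.77%), and by a gap over 1 in 2 (0.862%, against 0.131%) and 5 (2.16%, against 0.939%). *clec-91* had 6.24 in the IVM array and 6.63 in the control of that pair, against 9.23 to 11.1 in the other 18. The 2 probesets of *clec-87* had 8.58 and 8.39 in the IVM array and 9.39 and 8.87 in the control, against 11.68 to 12.81 and 11.16 to 12.34 in the others. For *clec-88* the first probeset had 6.81 in both arrays, against 8.75 to 10.99, and the second 8.37 and 8.41, against 9.89 to 12.06. These 3 genes were thus low where the oocyte markers were low. Other lists stood apart in the same arrays. The mean of the germline markers was 7.63 in the IVM array and 7.94 in the control, against 8.45 to 9.81 in the other 18, that of the hypodermis markers 10.02 and 10.54, against 8.84 to 9.90, and that of the neuron markers 7.94 and 7.59, against 6.89 to 7.50. The part of cell composition in the levels of these genes was not tested.

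Others were high in the same pair. The probesets of *clec-72* had 8.20 and 6.94 in the IVM array and 8.22 and 6.52 in the control, against 4.80 to 6.30 and 4.33 to 5.38 in the other 18. *clec-52*, which *S. aureus* induces, had 9.75 and 9.78, against 7.58 to 8.93. IVM and control moved together in this pair, and the mean log2 differences with IVM over 5 pairs in *clec-91*, *clec-87*, *clec-88* and *clec-72* were between -0.20 and 0.03, at adjusted p of 0.370 to 0.945. That of *clec-52* was -0.35 (adjusted p = 0.0862), and -0.42 (adjusted p = 0.0456) without this pair. A different pattern was seen in *clec-266*, which had 8.75, 9.20 and 8.15 in the IVM arrays and 8.88, 8.14 and 7.11 in the controls of replicates 3 to 5 at 1 µg/ml, against 5.05 to 6.37 in the other 14 arrays. *clec-222* was likewise high in replicates 3 to 5 at 1 µg/ml (8.19 to 8.84 with IVM and 8.13 to 9.02 in the controls), but it also reached 8.13 at 100 ng/ml IVM in replicate 5. *clec-190* had the widest range of all members over the 20 arrays, 4.91, with its lowest value in replicate 2 and its highest in replicate 4 at 1 µg/ml. These genes were chosen after their values were seen.

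**Figure D5:**
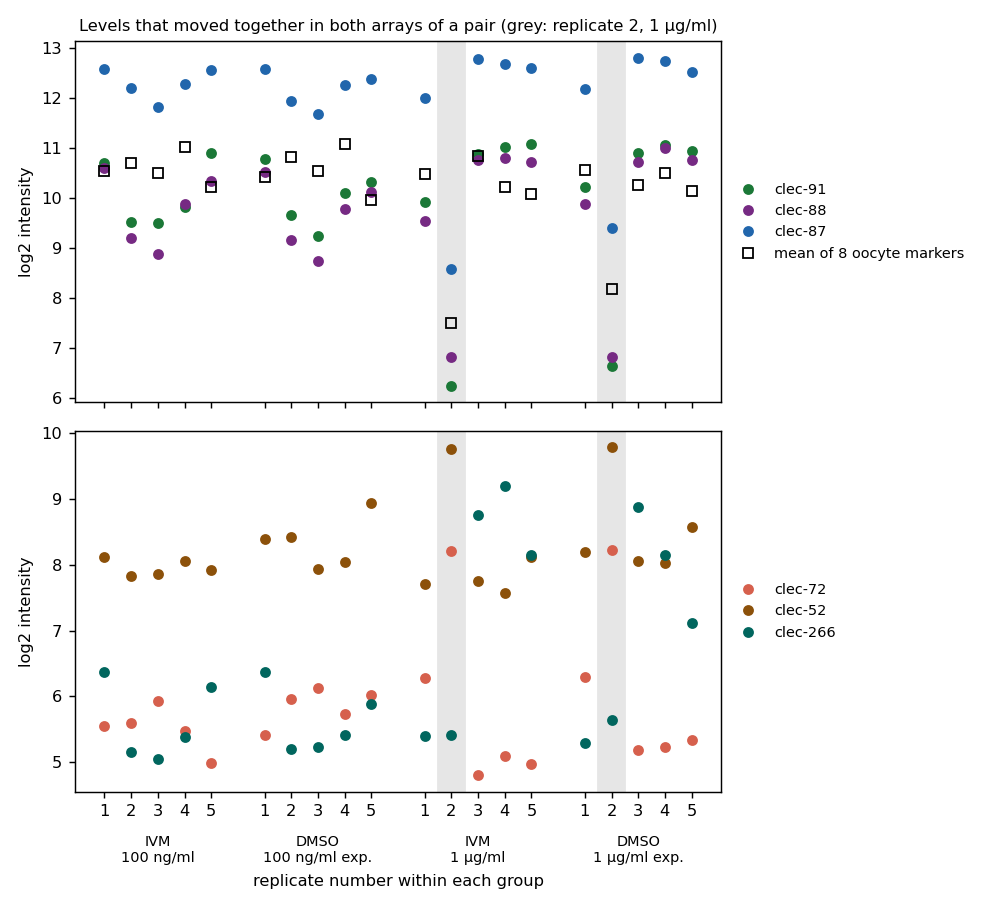
Log2 intensities (y axis) of 6 *clec* probesets in each of the 20 arrays, in the 4 groups by replicate number (x axis), with open squares for the mean of 8 oocyte markers and grey bands for replicate 2 at 1 µg/ml. *clec-91*, *clec-88* and *clec-87* are low there with the oocyte markers in both arrays, *clec-72* and *clec-52* are high there, and *clec-266* is high in replicates 3 to 5 of that experiment.

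At 1 µg/ml the SD of the 5 pair means was over 1 in 12 members (5.17%, against 2.85% of all probesets), and at 100 ng/ml in 0 (0%, against 1.47%). The 12 include both probesets of *clec-87*, *clec-88* and *clec-72*, so that these genes count more than once. These and *clec-91*, also among the 12, stood apart in replicate 2, and the count was not taken without that pair. The median SD over members of the pair means was 0.18 at 1 µg/ml and 0.17 at 100 ng/ml, and that of the differences within pairs was 0.20 and 0.22 (over all probesets 0.22 and 0.21 for pair means, and 0.22 and 0.21 for differences). Between the controls of both experiments, the 5 arrays with 0.01% DMSO lay above the 5 with 0.001% DMSO in 1 member (0.431%, against 0.841% of all probesets) and below them in 1 (0.431%, against 0.209%). The first was *clec-47*, with 11.2 ± 0.37 in the 0.01% DMSO controls and 10.1 ± 0.67 in the 0.001% DMSO controls (SD, n = 5), and the second the pseudogene *clec-69*, with 3.78 ± 0.10 and 4.04 ± 0.12.

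Probesets of 1 gene did not always point the same way. Of the 15 genes with more than 1 probeset, 9 had the same sign of change at 1 µg/ml in all of them and 6 did not. The median gap between the lowest and the highest log2 fold change of a gene was 0.08, and the largest was 0.32, in *clec-10* (-0.17 and 0.15). *clec-65* was the only one of these genes with a call, in both of its probesets. Of the 15 pseudogenes, which had log2 fold changes of -0.16 to 0.12, 0 passed at 1 µg/ml, with adjusted p of 0.374 or more.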

How the data were processed

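RNA of 20 samples of whole nematodes was measured on Affymetrix GeneChips. The authors deposited log2 intensities per probeset, already background-corrected and normalised by RMA. The processing notes of the submitters name RMA and limma, with versions not given in the sources used here, and the methods add Rank Products. The methods also say that possible outlier arrays were removed, without naming them. RMA sets all arrays to 1 distribution, so a shift of most transcripts would not show. Groups were taken from the sample titles. Descriptions naming another drug (on 7 arrays of the 100 ng/ml experiment) or another DMSO share go against the titles and were not used.

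From the table of 20575 probesets, 12 spike-in controls were left out and 20563 were tested, with no missing value. Of these, 19181 name 1 gene, 803 several and 579 none. Limma 3.58.1 (R 4.3.3) was fitted per experiment, blocked on the replicate number, and over all 20 arrays with 10 blocks for the difference between the doses, with Benjamini-Hochberg adjustment over all probesets and a threshold of 0.05. Python 3.11.15 with pandas 2.3.3 gave the summaries. The methods split the worm suspension between drug and control plates. Arrays with the same replicate number were taken as pairs on that ground, although the titles do not state the match. Their deviations from the group means correlated at 0.499 to 0.884 at 1 µg/ml and at 0.553 to 0.883 at 100 ng/ml, although replicate 3 at 1 µg/ml and replicate 5 at 100 ng/ml correlated better with another number. With 5 arrays a group, the number of arrays limits the precision.

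Members and lists were chosen with earlier results of these data known. For list counts, medians and means, a gene with several probesets was represented by the one with the highest mean. Named were the called probesets, the 5 largest mean differences per direction at 100 ng/ml, the 8 highest and 8 lowest signals, the 13 genes known from infection studies and the called genes of the galectin, regulator and PMK-1 target lists. Further genes (near the threshold, in runs of neighbours, without overlap of groups, or with levels that differed between pairs or controls) were chosen after their values were seen. On simulated data with 200 changed probesets, the fit at 1 µg/ml found 47.8%, 88.1% and 98.5% of log2 changes of 0.5, 1 and 2. The fit at 100 ng/ml found 46.3%, 89.6% and 97.0%, and the contrast of doses 19.4%, 79.1% and 100%. These shares need not hold for real changes at 100 ng/ml, where 1 pair can have the opposite sign. *clec-7* differed by -1.26 in replicate 4 and by 1.10 to 1.86 in the other 4 pairs. Its SE was 0.37, and limma over all pairs did not call it. The 0 calls at 100 ng/ml thus do not show that log2 changes of 1 or more are absent. The contrast uses the same arrays. Alternatives were no block, a single fit, quantile normalisation, median centring, a filter on low values, other variance priors, array weights, a threshold of 0.10, Rank Products and each replicate left out. Gene names and gene order came from RefSeq (WBcel235).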

Additional observations from a re-analysis of the deposited data

Results flagged for a closer look

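Of 152 groups of 5 arrays tested, for the 38 named *clec* probesets, 15 held an array far from the other 4 (Dixon's test at 95%), where about 1 in 20, or 7.6, would be found by chance. Of the 15, 7 lay in replicate 2 at 1 µg/ml. There, the probesets of *clec-87* had 8.58 and 8.39 in the IVM array, against 11.6 or more in the rest of that group, and 9.39 and 8.87 in the control, against 11.7 or more. *clec-52* (9.75), the brighter probeset of *clec-65* (8.32) and *clec-251* (3.35) were high in the IVM array of that replicate. In replicate 4 at 100 ng/ml, with IVM, *clec-83* (9.49), *clec-62* (8.23) and *clec-50* (10.2) were low. In the same experiment the control of replicate 5 was high in *clec-72* (5.38) and the control of replicate 2 in *clec-161* (3.40). At 1 µg/ml, *clec-85* was high in the IVM array of replicate 4 (8.53), and *clec-254* was low in the IVM array of replicate 1 (3.00) and high in the control of replicate 5 (3.52).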

How the results depend on the processing

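At 1 µg/ml, where 9 *clec* probesets were called with the replicate block, 1 was called without the block (*clec-7*), 14 with array quality weights, 16 at an adjusted p under 0.10 and 3 by unpaired Rank Products (*clec-7* and *clec-76* higher, *clec-70* lower). Over all 20563 probesets the count of 715 became 64, 973, 1234 and 293 under these settings, in the same order. Leaving out a replicate gave 1 to 10, with 1 without replicate 1 or 4 and 5 without replicate 5 (205, 218 and 625 of all probesets). The other alternatives gave 8 to 10, not always the same ones. Of the 9, the single fit called 6, and so did the filter on low values. Quantile normalisation called 7, as did other variance priors, and median centring called all 9. At 100 ng/ml the count of 0 became 3 without replicate 4 and 1 by Rank Products (*clec-7*), with 313 and 44 of all probesets, so that leaving out a replicate gave 0 to 3, and it stayed 0 in the others, the fit without the block included. The contrast of doses gave 0 *clec* probesets in each alternative run. The median log2 fold change over members ran from -0.05 to -0.01 at 1 µg/ml when a replicate was left out. For single named probesets, the direction changed in 0 of the alternatives, 51 values lost their call, all at 1 µg/ml, and 4 gained one, all at 100 ng/ml. *clec-7* kept its call at 1 µg/ml in each alternative. With 5 pairs, changes near 0.5 on the log2 scale were found in only 47.8% of simulated cases at 1 µg/ml, and low signals cannot be told from background without detection calls.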

Other observations

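A probeset that names *clec-225* together with B0365.9, and so is not a member, was lower with 1 µg/ml IVM in 5 of 5 pairs, with a mean log2 difference of -0.92 (SE 0.19, limma, adjusted p = 0.0360). It was chosen after its value was seen, and which of the genes gives the signal is not known.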
